A study of Mus musculus with 4 samples.

Results

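The fatty acid oxidation and ketogenesis genes are 29 genes of the 17813 in the deposited single-cell table, taken by their gene symbols, and all 29 symbols were found. They cover activation and import of fatty acids, the mitochondrial and peroxisomal oxidation cycles, the transfer of electrons, acyl-CoA thioesterases, ketone body metabolism and regulation. Levels of these genes are described in hepatocyte-like cells, a Krt8/Sox9 epithelial cluster, a Kupffer cell-like class, a plasmacytoid dendritic cell-like class and the other classes of liver tumour tissue.

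A fatty acid is first joined to coenzyme A, carried into the mitochondrion as a carnitine ester, and then shortened by repeated rounds of dehydrogenation, hydration, a further dehydrogenation and thiolysis. Electrons from the acyl-CoA dehydrogenases pass through the electron transfer flavoprotein to the respiratory chain, and peroxisomes shorten chains that mitochondria handle poorly. Hepatocytes turn much of the resulting acetyl-CoA into ketone bodies for other organs, and the nuclear receptor PPAR-alpha, encoded by Ppara, raises many of these genes in the fasting liver.

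The study compared Miz1_delta_hep mice (2 samples), which carry a deletion of the transcription factor Miz1 in hepatocytes, with Miz1F/F mice (2 samples), which carry floxed Miz1 alleles. All 4 samples were hepatocellular carcinoma tissue of C57BL/6 mice aged 5 months. All mice had received diethylnitrosamine (DEN), a liver carcinogen, at 25 mg/kg at week 2, and weekly carbon tetrachloride in corn oil at 0.5 ml/kg, a hepatotoxin. The Cre line or other driver behind the Miz1 deletion is not given in the sources used here. Cell barcodes of the table carry 4 suffixes, called barcode sets 1 to 4, and none of the labels ties a suffix to a sample. The genotypes are therefore not compared, the sets are not replicates of a group, and no test could be made: each value is given per set, or as a median with the lowest and the highest set.

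Promoter sequence is shown for a few members, and its relation to their levels was not tested. Shown are Acadm, Acadvl and Cpt1a, the members that held the searched motif, and the interval shared by Hadha and Hadhb. Also shown are Acot1 and Acot2, neighbouring genes whose levels were low in hepatocyte-like cells. Sequences are from RefSeq on GRCm38.p6 and are read in the direction of the gene. They cover up to 250 bases before a RefSeq transcript start and leave out annotated exons. The Cpt1a sequence lies within the gene as GENCODE vM21 places it, from 3322334 to 3385733. The capitals mark AGGTCA, the half-site of the nuclear receptor family to which PPAR-alpha belongs, or its reverse complement TGACCT. The Acadm sequence is chr3:153944644-153944893 on the minus strand, that of Acadvl is chr11:70015429-70015678 on the minus strand and that of Cpt1a is chr19:3323051-3323284 on the plus strand. The Acot1 sequence is chr12:84009252-84009489 and that of Acot2 is chr12:83987611-83987860, both on the plus strand. The interval between Hadha and Hadhb, genes that point away from each other, is chr5:30155163-30155247 and is given on the plus strand, on which Hadhb lies.
Acadm: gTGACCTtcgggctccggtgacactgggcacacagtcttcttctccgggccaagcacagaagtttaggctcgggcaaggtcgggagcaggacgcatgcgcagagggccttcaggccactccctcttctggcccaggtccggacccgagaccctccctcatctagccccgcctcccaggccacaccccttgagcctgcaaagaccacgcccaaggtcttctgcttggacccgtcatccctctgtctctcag
Acadvl: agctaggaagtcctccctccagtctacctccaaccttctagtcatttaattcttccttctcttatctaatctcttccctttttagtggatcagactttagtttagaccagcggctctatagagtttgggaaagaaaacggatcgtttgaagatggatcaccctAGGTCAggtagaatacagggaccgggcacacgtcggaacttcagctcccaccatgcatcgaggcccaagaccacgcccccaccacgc
Cpt1a: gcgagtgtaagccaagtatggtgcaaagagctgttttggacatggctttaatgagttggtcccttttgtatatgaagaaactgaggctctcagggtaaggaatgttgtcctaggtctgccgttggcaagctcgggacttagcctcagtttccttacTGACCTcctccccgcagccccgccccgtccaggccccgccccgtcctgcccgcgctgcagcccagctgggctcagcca
Acot1: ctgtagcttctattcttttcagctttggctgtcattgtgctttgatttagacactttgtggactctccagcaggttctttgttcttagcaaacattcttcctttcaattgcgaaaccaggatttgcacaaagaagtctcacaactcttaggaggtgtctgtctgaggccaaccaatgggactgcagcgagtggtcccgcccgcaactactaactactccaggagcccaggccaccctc
Acot2: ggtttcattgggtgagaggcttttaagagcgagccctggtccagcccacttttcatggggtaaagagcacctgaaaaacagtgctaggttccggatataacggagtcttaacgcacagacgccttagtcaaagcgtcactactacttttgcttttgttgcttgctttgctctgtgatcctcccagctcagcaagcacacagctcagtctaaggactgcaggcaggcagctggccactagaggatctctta
Hadhb: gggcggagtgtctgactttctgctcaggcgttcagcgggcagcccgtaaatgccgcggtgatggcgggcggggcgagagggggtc

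Of the 29 members, 25 had an entry in the RefSeq promoter table. Searched on both strands, AGGTCA lay in the windows of 3 of these 25, Cpt1a, Acadm and Acadvl, in 15.8% of all 27025 genes of the table and in 14.0% of its 32851 promoters. A direct repeat of AGGTCA with 1 base of any kind between the copies, which contains the half-site, lay in 0 member windows and 0.0335% of all promoters, and the same repeat with any base at the fourth position of each copy, which overlaps with it, in 0 member windows and 0.338% of all promoters. A match of letters is a description and not a binding site, and a window without a match says nothing about the factor.

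The table held 24802 cells and 65920312 UMIs, the molecular barcodes by which RNA molecules are counted. Sets 1 to 4 held 2574, 6224, 4825 and 11179 cells, with median UMIs per cell of 2648, 906, 1037 and 1859, and 373 barcodes occurred in more than 1 set. Cells were clustered and named by marker genes. The Krt8/Sox9 epithelial cluster held 793 cells (19 of them in set 1, which was not used for it), Kupffer cell-like cells, named for the liver's own macrophages, numbered 2004, and plasmacytoid dendritic cell-like cells, which make interferon, numbered 964. Hepatocyte-like cells numbered 1155, only 52 of them in set 3. The Kupffer cell-like class joined cluster 4 (529 cells, 9 of them in set 3) and cluster 8 (1475 cells), and its levels are means over both. Median UMIs per cell were 6307 in the epithelial cluster, 1312 in Kupffer cell-like cells, 1798.5 in plasmacytoid dendritic cell-like cells and 1556 in hepatocyte-like cells.

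Each class held the markers of its name. The epithelial cluster had all 6 of its markers, at a summed 12480 to 14310 CPM over the sets, and also all 12 hepatocyte markers, at 30360 to 43200 CPM, with 3 of 8 cholangiocyte markers. CPM is the UMIs of a gene per 1000000 UMIs, as a mean over cells. Kupffer cell-like cells had all 8 of their markers at 14500 to 17950 CPM, and hepatocyte markers at 1694 to 8687 CPM. They also had 7 of the 10 monocyte/macrophage markers, the list adding up to 1740 to 7524 CPM. Of the 9 endothelial cell markers they had 8, at a summed 532.3 to 890.7 CPM. Monocyte/macrophage-like cells had 5 of the 8 Kupffer cell markers, at a summed 1325 to 1696 CPM. Plasmacytoid dendritic cell-like cells had all 9 of their markers at 13670 to 17720 CPM. They also had 6 of the 9 dendritic cell markers, the list adding up to 1892 to 2642 CPM, and of these 9 only Xcr1 was at 0. Hepatocyte-like cells had all 12 of their markers at 86050 to 123500 CPM. They also had 2 of the 8 cholangiocyte (bile duct) markers, the list adding up to 892 to 2433 CPM, with Krt19, Krt7 and Cftr at 0. Hepatocyte RNA free in the droplets can reach other classes. A fixed list of 15 abundant hepatocyte products was used, made of the 12 hepatocyte markers with Apoc1, Apoa2 and Fga. Summed, these products stood at 31.8% of their hepatocyte-like level in the epithelial cluster (sets 24.2% to 34.5%), at 5.67% in Kupffer cell-like cells (2.34% to 8.17%) and at 2.54% in plasmacytoid dendritic cell-like cells (0.454% to 4.97%). Whether these were made in the cells or came from free RNA was not tested. The same share of a member's hepatocyte-like level, taken within each set, is given below as its free RNA level.

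Fatty acid oxidation and ketogenesis genes had their highest summed level in hepatocyte-like cells. The 29 genes added up to 2179, 2316 and 2335 CPM in the epithelial cluster (sets 2 to 4), to 997.9, 1116, 1299 and 1196 CPM in the Kupffer cell-like class (sets 1 to 4), to 1142, 990.9, 789.1 and 1205 CPM in plasmacytoid dendritic cell-like cells, and to 2932, 3192, 3407 and 3610 CPM in hepatocyte-like cells. Every hepatocyte-like value lay above every value of the other 3 classes, and the epithelial cluster lay above both immune classes in every set it has. Endothelial cell-like cells stood close to the Kupffer cell-like level, at a median of 1113 CPM (983 to 1175). The lowest of the 14 classes with a value in at least 3 sets were erythroid cell-like cells, at 226.3 CPM (145.4 to 326.9). The 8 erythroid markers alone took 529200 to 727200 CPM in that class. This lowers the CPM of all other genes there, and its part in the rank was not tested.

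**Figure D1:**
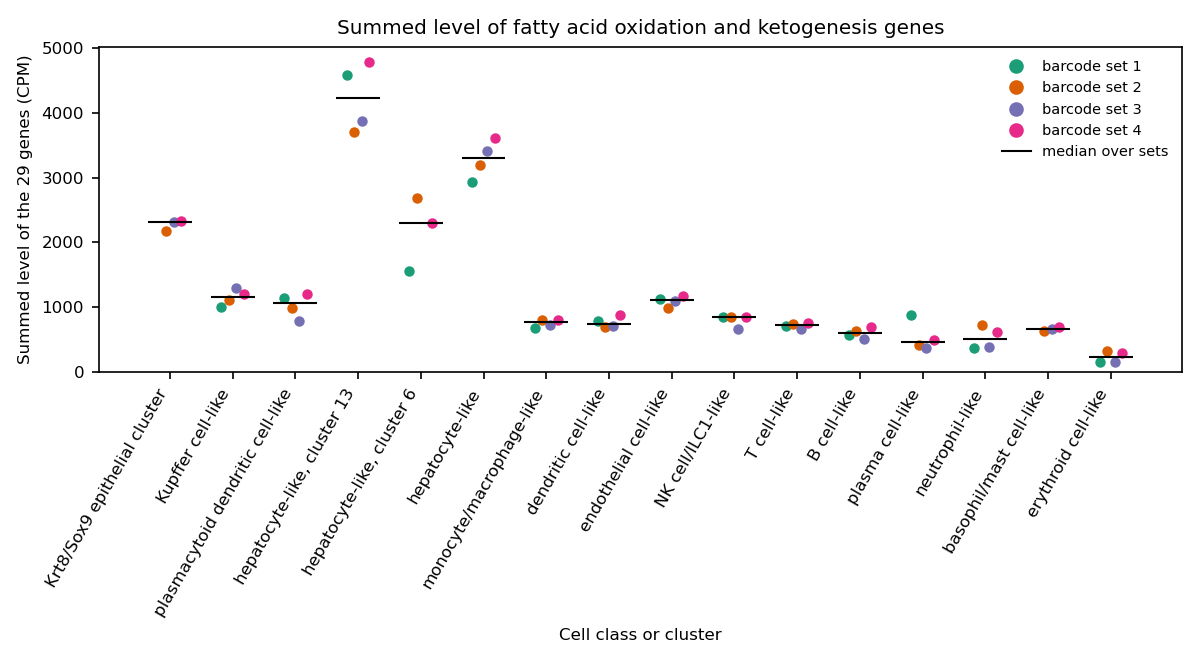
The vertical axis is the summed level of the 29 genes in CPM, and each point is 1 barcode set with a line at the median. Hepatocyte-like cells lie at 2932 to 3610 CPM, their lower-Alb cluster (13) at 3709 to 4784, their higher-Alb cluster (6) at 1563 to 2688 and the Krt8/Sox9 epithelial cluster at 2179 to 2335.

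Of the 29 members, 16 were highest in hepatocyte-like cells by the median over sets, 10 of them in every set. Of all genes, 11.2% of 9381 were highest in that class. These 9381 genes had a median of at least 20 CPM in their highest class, a filter not applied to the members. Ehhadh (9.94 CPM) and Ppara (8.188) among the 16, and Crat (17.54), lay under it. The epithelial cluster was highest for 7 members (12.6% of all genes), 1 of them in every set it has. Kupffer cell-like cells were highest for Acot1 and Hsd17b4 (9.28% of all genes) and plasmacytoid dendritic cell-like cells for Acsl1 and Ech1 (9.53%). Dendritic cell-like cells were highest for Slc25a20 (2.28%), in every set, and endothelial cell-like cells for Crat (21.4%). Cholangiocyte-like cells (97 cells) had values in only 2 sets and were not ranked. Of the 16 members, their medians were above the hepatocyte-like ones only for Eci1 (155.4 against 97.75 CPM), Decr1 (108.3 against 68.11), Etfdh (61.43 against 36.46) and Acadvl (100.2 against 97.5). Their Acot1 (58.33 CPM) and Crot (103.6 CPM) medians were also above those of the highest ranked class (57.16 and 97.36).

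**Figure D2:**
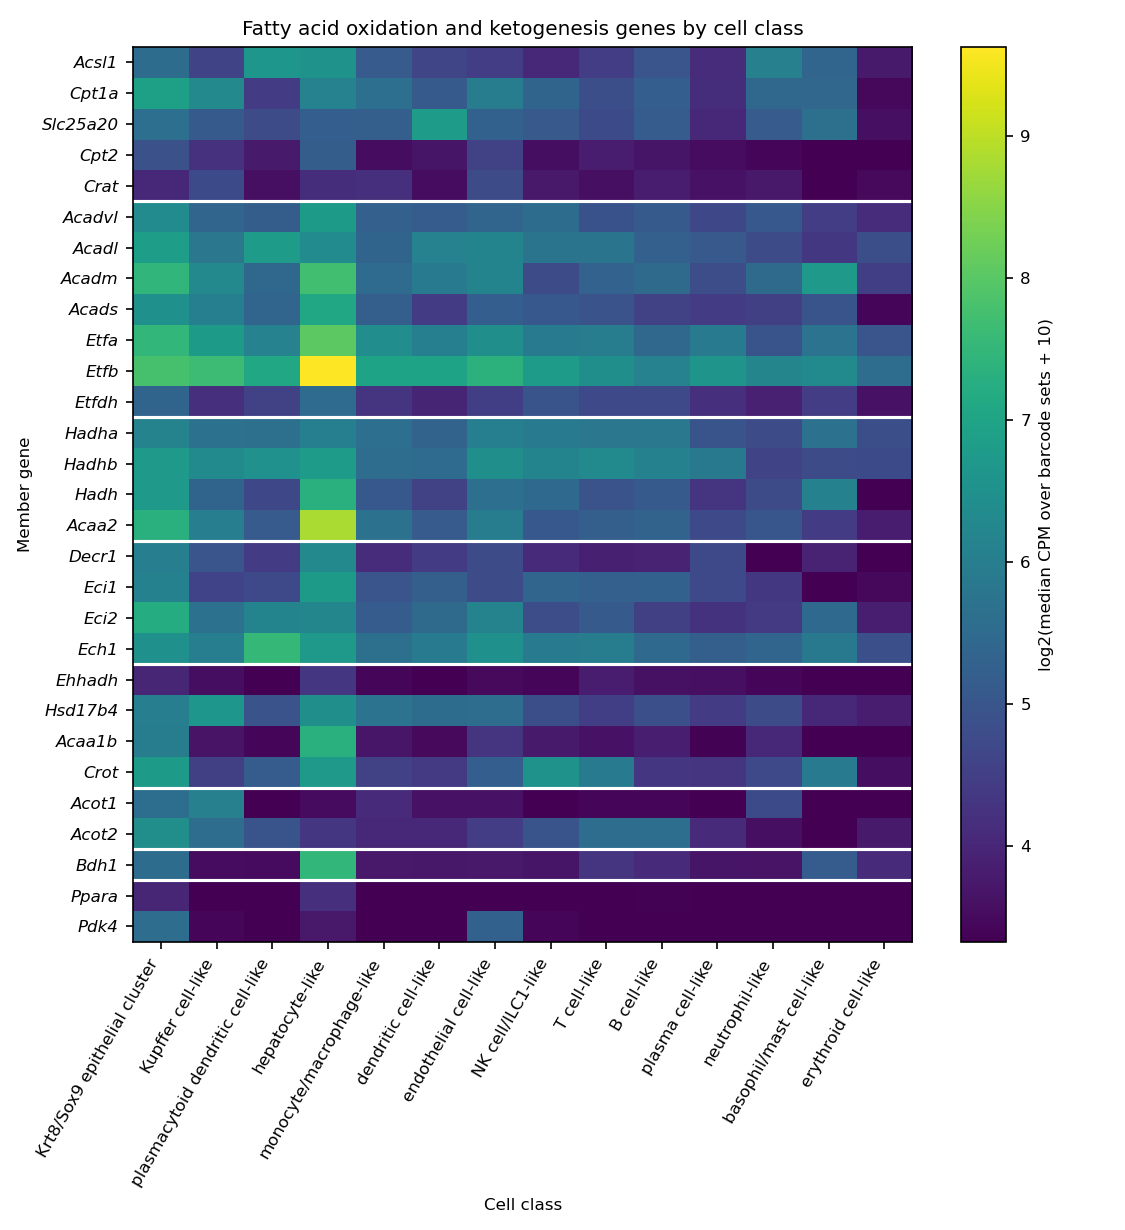
Colour gives log2 of the median CPM over barcode sets plus 10, for each member gene (rows, in blocks by role) and each of 14 cell classes (columns). Etfb and Acaa2 in hepatocyte-like cells are the brightest fields, and the row of Slc25a20 is brightest in dendritic cell-like cells.

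Among the genes of activation and the carnitine shuttle, no class was highest throughout. Acsl1 encodes the long-chain acyl-CoA synthetase that activates fatty acids. Its level was 63.7, 26.65 and 37.11 CPM in the epithelial cluster, 22.23, 13.75, 0 and 14.85 CPM in Kupffer cell-like cells, 97.12, 99.34, 81.91 and 80.15 CPM in plasmacytoid dendritic cell-like cells and 60.7, 109.8, 96.3 and 71.47 CPM in hepatocyte-like cells. The plasmacytoid and hepatocyte-like values overlapped, and those of the Kupffer cell-like class lay below both in every set. Dendritic cell-like cells had 10.07, 15.06, 14.94 and 19.19 CPM, and neutrophil-like cells, the next class down, had a median of 56.81. Acsl1, Slc25a20, Hsd17b4, Crot, Acot1, Acot2 and Pdk4 are given per set because their values had been seen. The rule for full values was a median of 100 CPM in the highest class.

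Cpt1a encodes the liver form of the outer-membrane carnitine palmitoyltransferase, the controlled step of import. It had 132.7, 109.2 and 66.23 CPM in the epithelial cluster, 55.47, 81.99, 107.7 and 55.29 CPM in Kupffer cell-like cells, 2.654, 46.06, 11.83 and 11.19 CPM in plasmacytoid dendritic cell-like cells and 14.95, 86.64, 61.2 and 57.35 CPM in hepatocyte-like cells. The epithelial cluster was above hepatocyte-like cells in each of its 3 sets, while the Kupffer and hepatocyte-like ranges overlapped. Against the higher-Alb hepatocyte-like cluster alone the median log2 ratio was -0.26, and the direction differed between the sets compared. In set 2 the values were 132.7 CPM in the epithelial cluster and 126 CPM in that cluster. In set 4 they were 66.23 and 104.2 CPM. Slc25a20 encodes the carnitine/acylcarnitine carrier of the inner membrane. It had 77.08, 119.1, 101.6 and 97.91 CPM in dendritic cell-like cells, against 12.07, 30.15, 17.37 and 17.82 CPM in plasmacytoid dendritic cell-like cells and 31.37, 45.65, 10.25 and 23.01 CPM in hepatocyte-like cells. Dendritic cell-like cells stood above each of the other 13 ranked classes in every set, and the next highest median was 39.94 CPM, in basophil/mast cell-like cells. Cpt2, the inner-membrane transferase, had medians of 19.6 CPM in the epithelial cluster and 26.09 in hepatocyte-like cells, where set 3 had 1.534. Crat, a carnitine transferase for short chains, had medians of 17.54 CPM in endothelial cell-like cells and 16.88 in Kupffer cell-like cells.

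**Figure D3:**
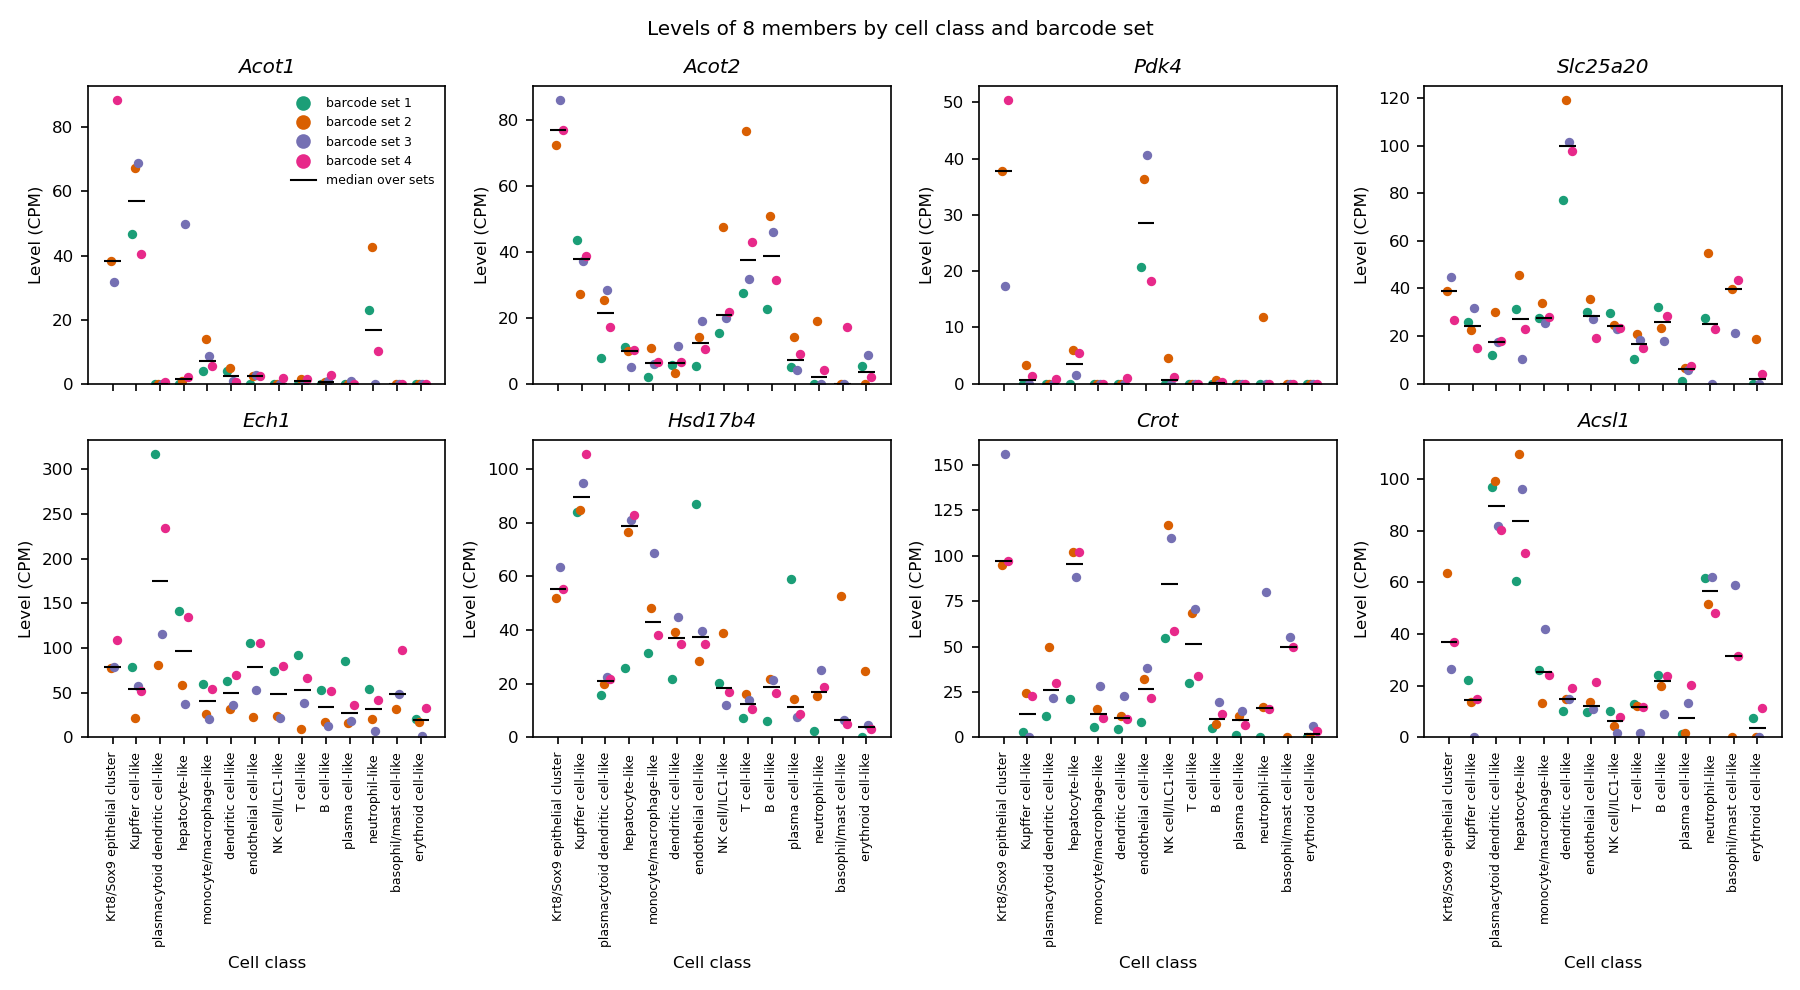
The vertical axes give the level in CPM of 8 members whose highest class was not the hepatocyte-like one, in 14 classes, with 1 point per barcode set and a line at the median. Slc25a20 lies at 77.08 to 119.1 CPM in dendritic cell-like cells, and Acot2 at 72.52 to 86.07 CPM in the Krt8/Sox9 epithelial cluster.

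The acyl-CoA dehydrogenases, each for its own chain length, were higher in epithelial and hepatocyte-like cells than in the immune classes, apart from Acadl. Acadm, the medium-chain enzyme, had 202, 144.8 and 168 CPM in the epithelial cluster, 40.44, 77.46, 76.52 and 59.91 CPM in Kupffer cell-like cells, 19.09, 43.23, 24.85 and 42.29 CPM in plasmacytoid dendritic cell-like cells and 144.4, 233.8, 199.5 and 198.8 CPM in hepatocyte-like cells. Both immune classes lay below every epithelial and hepatocyte-like value. Acads, the short-chain enzyme, had 63.5, 79.46 and 82.96 CPM in the epithelial cluster, 42.87, 58.24, 61.29 and 54.73 CPM in Kupffer cell-like cells, 40.03, 23.4, 11.29 and 45.53 CPM in plasmacytoid dendritic cell-like cells and 65.2, 121, 167.1 and 135.4 CPM in hepatocyte-like cells. Hepatocyte-like cells were the highest of the 4 in every set. Acadl, the long-chain enzyme, had 103, 115.1 and 83.44 CPM in the epithelial cluster, 44.33, 60.08, 0 and 48.37 CPM in Kupffer cell-like cells, 118.7, 104.1, 67.96 and 96.65 CPM in plasmacytoid dendritic cell-like cells and 64.05, 63.81, 80.93 and 103.9 CPM in hepatocyte-like cells. The epithelial, plasmacytoid and hepatocyte-like ranges of Acadl overlapped. Acadvl, the very-long-chain enzyme, ranged from 72.13 to 97.56 CPM in the epithelial cluster and from 72.42 to 125.6 CPM in hepatocyte-like cells, against at most 35.1 CPM in Kupffer cell-like cells.

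The electron transfer flavoprotein, which takes electrons from these dehydrogenases, was highest in hepatocyte-like cells in both of its subunits. Etfb, the beta subunit, had 214.9, 212.4 and 196.9 CPM in the epithelial cluster, 193.9, 103.5, 186.5 and 234.5 CPM in Kupffer cell-like cells, 145.9, 108.5, 66.79 and 152.1 CPM in plasmacytoid dendritic cell-like cells and 862.8, 680.1, 771.6 and 788.2 CPM in hepatocyte-like cells. Every hepatocyte-like value was above every value of the other 3 classes, and the Kupffer cell-like range overlapped with both of the others. Etfa, the alpha subunit, had 163.6, 175.1 and 169.8 CPM in the epithelial cluster, 41.79, 114.2, 128 and 81.91 CPM in Kupffer cell-like cells, 54.74, 63.16, 47.51 and 82 CPM in plasmacytoid dendritic cell-like cells and 245.2, 290.4, 222.1 and 256.9 CPM in hepatocyte-like cells. These groups did not overlap between hepatocyte-like cells and the others. The free RNA level of Etfb in the epithelial cluster was 245.5 CPM at the median, and the cluster was above it in 1 of 3 sets. That of Etfa was 70.66 CPM, and the cluster was above it in all 3. Etfdh, which passes the electrons on to ubiquinone, had medians of 30.97 CPM in the epithelial cluster, 8.4 CPM in Kupffer cell-like cells, 13.49 CPM in plasmacytoid dendritic cell-like cells and 36.46 CPM in hepatocyte-like cells.

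Depth differed between the classes, so shares of cells with a UMI were also taken with each cell thinned to 500 UMIs. Etfb was then seen in 9.56% of 753 epithelial cells (95% exact binomial interval 7.56% to 11.9%), 9.13% of 1884 Kupffer cell-like cells (7.87% to 10.5%), 5.53% of 959 plasmacytoid dendritic cell-like cells (4.17% to 7.17%) and 31.6% of 1063 hepatocyte-like cells (28.8% to 34.5%). Unthinned, the shares were 63.1%, 29.2%, 25.6% and 65.7% of cells in the same order. The unthinned epithelial and hepatocyte-like shares lie close together, and the thinned ones do not. These intervals cover counting error only.

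The last steps of the mitochondrial cycle split between a pair of genes with even levels and a pair that was highest in hepatocyte-like cells. Hadha and Hadhb encode the alpha and beta subunits of the trifunctional protein, which acts on long chains. Hadha ranged from 44.38 to 87.51 CPM in the epithelial cluster, 37.3 to 44.15 CPM in Kupffer cell-like cells, 34.85 to 45.29 CPM in plasmacytoid dendritic cell-like cells and 33.64 to 69.43 CPM in hepatocyte-like cells, and Hadhb from 80.14 to 98.02, 61.2 to 89.79, 68.67 to 106.2 and 66.5 to 105.7 CPM in the same classes. The ranges overlapped in all 4 classes for Hadhb. The genes lie head to head, with the interval shown above between them. Hadh, the dehydrogenase for shorter chains, had 97.32, 90.24 and 94.01 CPM in the epithelial cluster, 21.37, 16.01, 73.22 and 40.89 CPM in Kupffer cell-like cells, 20.68, 10.55, 9.168 and 28.4 CPM in plasmacytoid dendritic cell-like cells and 90.9, 172.1, 173.5 and 128.2 CPM in hepatocyte-like cells. Acaa2, the mitochondrial thiolase, had 113.7, 161.5 and 151.4 CPM in the epithelial cluster, 64.26, 34.25, 66.6 and 44.52 CPM in Kupffer cell-like cells, 28.05, 22.14, 11.89 and 49.81 CPM in plasmacytoid dendritic cell-like cells and 436.1, 338.5, 452.2 and 459.1 CPM in hepatocyte-like cells. The hepatocyte-like values of Acaa2 overlapped with none of the others. In the epithelial cluster the free RNA level of Acaa2 was 143.9 CPM at the median, and the cluster was above its free RNA level in 2 of 3 sets.

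The auxiliary enzymes, which handle double bonds of unsaturated chains, had different highest classes. Eci2, an enoyl-CoA isomerase, had 140.3, 179.8 and 131.7 CPM in the epithelial cluster, 17.31, 38.99, 90.38 and 45.56 CPM in Kupffer cell-like cells, 80.43, 51.95, 44.39 and 72.47 CPM in plasmacytoid dendritic cell-like cells and 58.92, 42.81, 70.06 and 82.29 CPM in hepatocyte-like cells. The epithelial values overlapped with none of the others. Ech1, a dienoyl-CoA isomerase, had 77.58, 79.08 and 108.6 CPM in the epithelial cluster, 78.87, 21.88, 57.79 and 51.4 CPM in Kupffer cell-like cells, 317.5, 81.27, 115.5 and 234.8 CPM in plasmacytoid dendritic cell-like cells and 141, 58.74, 37.75 and 134.8 CPM in hepatocyte-like cells. Ech1 differed several-fold between sets within a class, so the plasmacytoid and hepatocyte-like ranges overlapped although the plasmacytoid value was the higher in each set. Eci1, the other isomerase, ranged from 50.99 to 86.47 CPM in the epithelial cluster and from 49.47 to 119.7 CPM in hepatocyte-like cells, against at most 27.61 CPM in Kupffer cell-like and 21.41 CPM in plasmacytoid dendritic cell-like cells. Decr1, the dienoyl-CoA reductase, ranged from 47.15 to 56.95 CPM in the epithelial cluster and from 7.383 to 85.89 CPM in hepatocyte-like cells, the lowest value being that of set 3.

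Peroxisomal members were unlike one another. Acaa1b, a peroxisomal thiolase, had 53.66, 53.38 and 175.9 CPM in the epithelial cluster, 1.896, 3.316, 0 and 6.033 CPM in Kupffer cell-like cells, 0, 0, 1.465 and 7.607 CPM in plasmacytoid dendritic cell-like cells and 108.6, 85.8, 208.8 and 192.6 CPM in hepatocyte-like cells. Its immune values were at or under the free RNA level in every set. Acaa1b and Acaa1a are near-identical genes whose reads the authors' counting could split, so the value of either is uncertain. Hsd17b4, a peroxisomal enzyme with hydratase and dehydrogenase activity, had 83.89, 84.52, 94.9 and 105.6 CPM in Kupffer cell-like cells, against 31.45, 48.04, 68.71 and 38.26 CPM in monocyte/macrophage-like cells and 26.03, 76.49, 80.95 and 82.79 CPM in hepatocyte-like cells. The Kupffer cell-like class was the highest of these 3 in every set, by a margin that was small against hepatocyte-like cells in sets 2 and 3. Its cluster 4 had 2.801, 102.6 and 85.79 CPM of Hsd17b4 in sets 1, 2 and 4. Its cluster 8 had 143.9, 82.6 and 113.9 CPM in the same sets. In set 1 cluster 4 lay below the hepatocyte-like value. Crot, the carnitine octanoyltransferase by which peroxisomes export shortened chains, had 95.02, 156.1 and 97.36 CPM in the epithelial cluster, against 21.06, 102.1, 88.33 and 102.1 CPM in hepatocyte-like cells, and a median of 84.37 CPM (54.82 to 116.8) in NK cell/ILC1-like cells. Ehhadh, the other bifunctional enzyme of peroxisomes, had at most 10.01 CPM in the epithelial cluster, against 4.782 to 37.59 CPM in hepatocyte-like cells.

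The acyl-CoA thioesterases Acot1 (cytosolic) and Acot2 (mitochondrial), which release free fatty acids from coenzyme A, were low in hepatocyte-like cells. Acot2 had 72.52, 86.07 and 77.15 CPM in the epithelial cluster, 43.72, 27.3, 37.14 and 38.64 CPM in Kupffer cell-like cells, 7.652, 25.37, 28.52 and 17.36 CPM in plasmacytoid dendritic cell-like cells and 11, 9.81, 5.139 and 10.08 CPM in hepatocyte-like cells. The epithelial values overlapped with none of these, and the Kupffer cell-like values lay above every hepatocyte-like value. Acot1 had 38.25, 31.66 and 88.47 CPM in the epithelial cluster, 46.86, 67.45, 68.94 and 40.35 CPM in Kupffer cell-like cells, 0, 0, 0 and 0.68 CPM in plasmacytoid dendritic cell-like cells and 0, 0.8414, 49.9 and 1.953 CPM in hepatocyte-like cells. The hepatocyte-like value of set 3 rested on 2 UMIs. With each cell thinned to 500 UMIs, Acot2 was seen in 3.45% of epithelial cells (2.27% to 5.02%), in 1.8% of Kupffer cell-like cells (1.25% to 2.51%), in 0.626% of plasmacytoid dendritic cell-like cells (0.23% to 1.36%) and in 0.188% of hepatocyte-like cells (0.0228% to 0.678%), and unthinned in 26.4%, 6.94%, 4.77% and 2.86%. On GRCm38 (GENCODE vM21), Acot2 spans 83987861 to 83993873 and Acot1 spans 84009490 to 84018371 of chromosome 12, both on the plus strand. The genes are near-identical in their coding parts, so how the authors' counting divided reads between them is uncertain.

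Bdh1, the mitochondrial hydroxybutyrate dehydrogenase that interconverts the ketone bodies, had, of the members past the filter, the lowest log2 ratio of CPM plus 10 to hepatocyte-like cells in each of the other 3 classes. It had 23.4, 36.55 and 38.83 CPM in the epithelial cluster, 0, 3.193, 0 and 8.468 CPM in Kupffer cell-like cells, 1.634, 4.636, 0 and 1.263 CPM in plasmacytoid dendritic cell-like cells and 109.9, 166.1, 217.7 and 175.3 CPM in hepatocyte-like cells. The epithelial values lay below their free RNA level, 60.47 CPM at the median, in all 3 sets. With each cell thinned to 500 UMIs, Bdh1 was seen in 1.2% of epithelial cells (0.548% to 2.26%), in 0.318% of Kupffer cell-like cells (0.117% to 0.692%), in 0.104% of plasmacytoid dendritic cell-like cells (0.00264% to 0.58%) and in 7.24% of hepatocyte-like cells (5.76% to 8.97%). The unthinned shares were 19.7%, 0.898%, 0.415% and 33.2%. Kupffer cell-like cells were above their free RNA level of Bdh1 in 0 of 4 sets, and the source of the few UMIs in the immune classes was not tested.

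Neither regulator passed the filter on low values. Ppara ranged from 3.113 to 6.886 CPM in the epithelial cluster and from 2.676 to 17.28 CPM in hepatocyte-like cells, with a median of 0 in both immune classes. Pdk4, a kinase that turns off pyruvate oxidation and so spares glucose, had 37.86, 17.42 and 50.41 CPM in the epithelial cluster, against 0, 5.983, 1.531 and 5.462 CPM in hepatocyte-like cells. These groups did not overlap, and endothelial cell-like cells had a median of 28.59 CPM, while the other 11 ranked classes had medians under 1 CPM.

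Set against hepatocyte-like cells, the epithelial cluster differed 2-fold or more in few members. The log2 ratio of CPM plus 10 was taken within each set, for genes that averaged 20 CPM or more over both classes, and a gene was called when the ratio was at least 2-fold in the same direction in every set. Of the 29 members 25 passed the filter, and their median log2 ratio was -0.31 (sets -0.32 to -0.20), where all 5262 genes tested had 0.31. Lower by at least 2-fold were 3 members, Bdh1 at -2.29 (-2.40 to -1.92), Etfb at -1.81 (-1.95 to -1.62) and Acaa2 at -1.49 (-1.54 to -1.43), where 4.33% of all genes were called lower. Higher was 1 member, Acot2, at 2.12 (2.06 to 2.67), where 8.23% of all genes were called higher. Of the members that passed, 13 were lower in every set, against 18.4% of all genes, and 3 were higher, against 44%. Against the higher-Alb hepatocyte-like cluster alone, described further on, 10 were lower and 10 higher in both sets that could be compared, and Acadm (0.25), Acadvl (0.13), Hadh (0.23), Hadhb (0.20), Acaa1b (0.32) and Eci1 (0.46) stood above 0. The share over all genes was not taken for that comparison, so nothing about the members is read from these counts. Without set 3, Acot1 was called higher as well, at 2.60. Pdk4 lay under the filter, at 1.58 (1.25 to 1.97). In the epithelial cluster 22 of 29 members were above their free RNA level in every set, and Bdh1, Etfb, Acaa2, Acaa1b, Acsl1, Ehhadh and Ppara were not. Over 15 respiratory chain genes the median ratio was -0.51, and over 15 immediate early genes, which handling of cells can raise, it was 2.89. Their part in the values of the members was not tested.

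**Figure D4:**
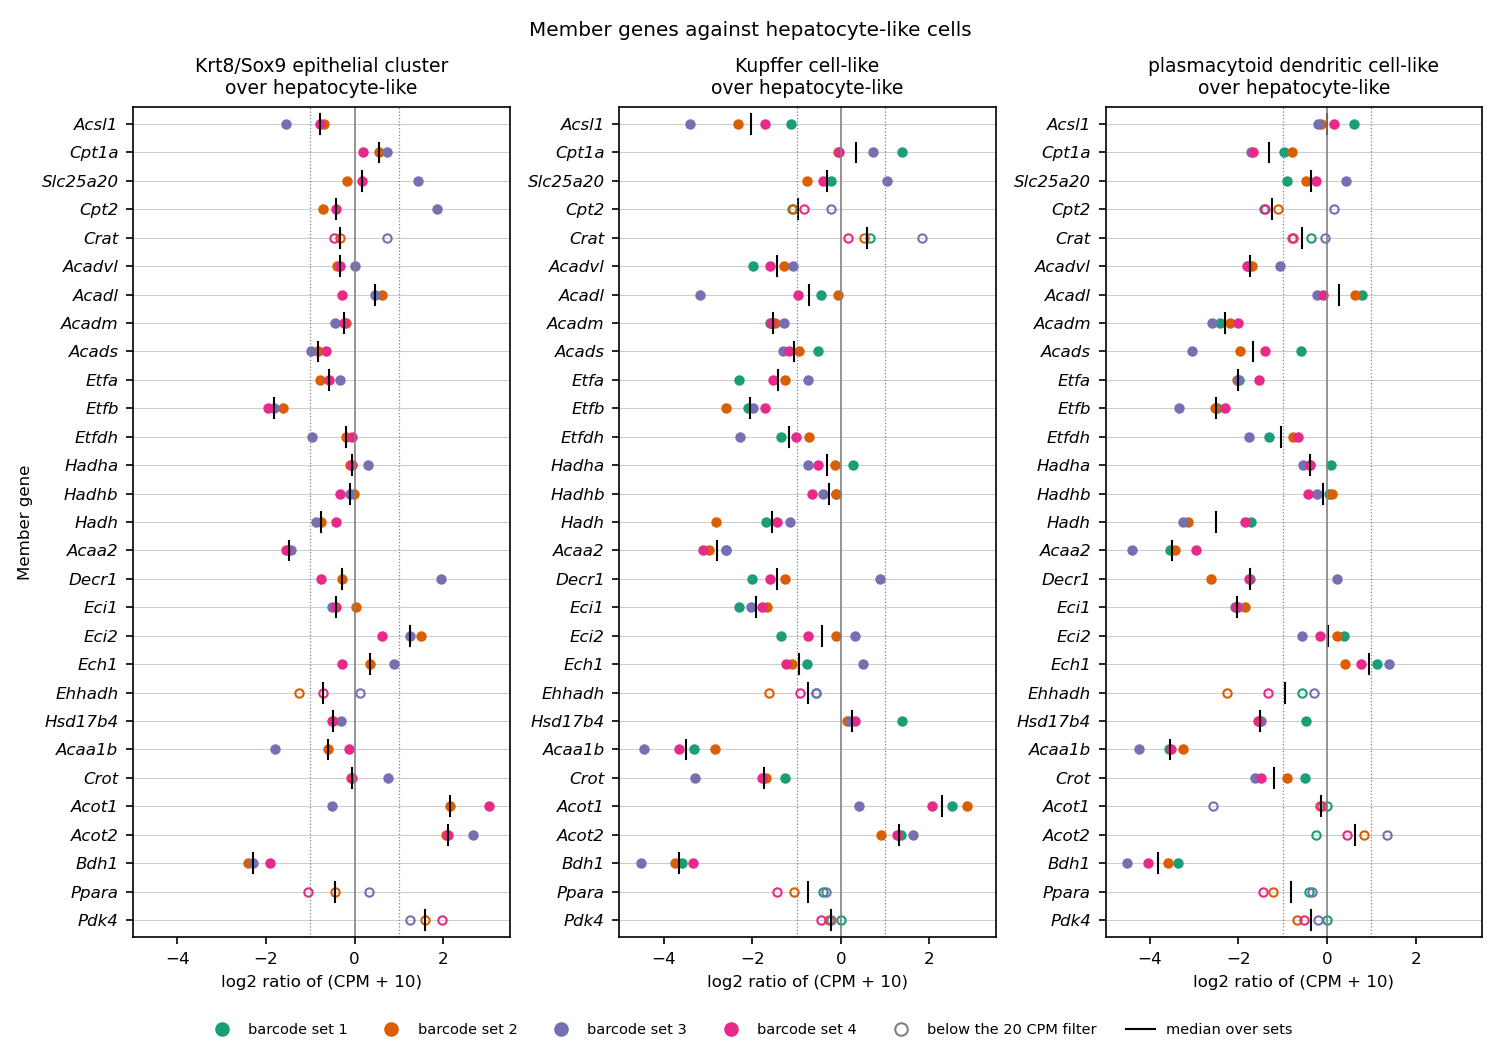
The horizontal axes give the log2 ratio of CPM plus 10 of each member against hepatocyte-like cells, for the Krt8/Sox9 epithelial cluster (left), the Kupffer cell-like class (middle) and the plasmacytoid dendritic cell-like class (right), with 1 point per barcode set, a bar at the median and dotted lines at 2-fold. Most members lie near 0 in the epithelial panel (median -0.31) and left of it in both immune panels (medians -1.25 and -1.58).

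Kupffer cell-like cells had 24 members past the filter against hepatocyte-like cells, with a median of -1.25 (-1.34 to -1.11) beside 0.48 over 5408 genes. Lower by at least 2-fold were 10 members, Acadm, Acadvl, Hadh, Bdh1, Acaa1b, Acaa2, Acsl1, Eci1, Etfb and Crot, where 10.5% of all genes were called lower. None was called higher, where 19.7% of all genes were. The largest differences were those of Bdh1 at -3.66 (-4.51 to -3.33) and Acaa1b at -3.49 (-4.45 to -2.85). Lower in every set were 15 members, against 22.5% of all genes, and higher in every set were 3, Hsd17b4, Acot1 and Acot2, against 44.8%. Acot1 stood at 2.29 (0.40 to 2.84), the lowest being set 3, in which the hepatocyte-like value rested on 2 UMIs, and Acot2 at 1.32 (0.91 to 1.64). Immediate early genes had a median of 2.60 and respiratory chain genes of -0.83 in this pair, and their part was not tested. Against the higher-Alb hepatocyte-like cluster alone, described further on, 5 members were called lower, and Acadm (-0.91), Acadvl (-0.98), Hadh (-1.11), Eci1 (-1.05) and Etfb (-1.04) were not. The share of all genes called lower was not taken for that comparison.

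Plasmacytoid dendritic cell-like cells had 22 members past the filter, with a median of -1.58 (-1.67 to -1.15) beside 0.46 over 5280 genes. Lower by at least 2-fold were 9 members, Acadm, Acadvl, Hadh, Bdh1, Acaa1b, Acaa2, Eci1, Etfa and Etfb, where 12.7% of all genes were called lower. None was called higher, where 18.1% of all genes were. Lower in every set were 14 members, against 24.2% of all genes, and higher in every set was 1, Ech1, against 45.1%. The Acaa2 ratio was -3.49 (-4.40 to -2.97) and the Hadh ratio -2.50 (-3.26 to -1.72). Ech1 stood at 0.94 (0.41 to 1.39), and at 1.28 and called higher against the higher-Alb hepatocyte-like cluster alone. Respiratory chain genes had a median of -0.95 in this pair, 11 of 15 being lower in every set, and immediate early genes of 0.52, and their part was not tested.

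Kupffer cell-like cells were also set against the other monocytes and macrophages of the tissue, called monocyte/macrophage-like, and most members differed by less than 2-fold. The 17 members past the filter had a median of 0.41 (0.34 to 1.07) beside 0.18 over 5327 genes. Higher by at least 2-fold was 1 member, Acot1, at 1.87 (1.70 to 2.09), where 3.49% of all genes were called higher. Its levels were 46.86, 67.45, 68.94 and 40.35 CPM in Kupffer cell-like cells, against 3.809, 13.8, 8.567 and 5.461 CPM in monocyte/macrophage-like cells. None was called lower, where 2.46% of all genes were. Higher in every set were 7 members, Cpt1a, Acadm, Acads, Hadhb, Hsd17b4, Acot1 and Acot2, against 30.1% of all genes. Lower in every set were 0, against 15.6% of all genes. Abundant hepatocyte products were higher in Kupffer cell-like cells too, at a median of 0.86 over 14 genes, and their part was not tested. The clusters of the Kupffer cell-like class differed. Medians in cluster 4 and cluster 8 were 34.93 and 82.12 CPM for Cpt1a, and 87.46 and 35.45 CPM for Ech1. Immediate early genes added up to medians of 3199 and 19950 CPM, and their part was not tested.

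Between plasmacytoid dendritic cell-like and dendritic cell-like cells, 17 members passed the filter, with a median of 0.16 (0.04 to 0.37) beside 0.25 over 5088 genes. Immediate early genes had a median of -0.99 in this pair, 11 of 15 being lower in every set, and their part was not tested. Higher by at least 2-fold were 2 members, Acsl1 at 2.00 (1.63 to 2.42) and Ech1 at 1.52 (1.14 to 2.16), where 7.02% of all genes were called higher. Lower by at least 2-fold was 1 member, Slc25a20, at -1.97 (-2.03 to -1.69), where 4.6% of all genes were called lower. Ech1 had 317.5, 81.27, 115.5 and 234.8 CPM in plasmacytoid dendritic cell-like cells, against 63.22, 31.47, 36.51 and 70.28 CPM in dendritic cell-like cells. These groups did not overlap, nor did those of Acsl1 and Slc25a20. Higher in every set were 6 members, against 40.7% of all genes, and lower in every set were 3, against 17.6%. The activating enzyme and the carnitine carrier differed in opposite directions between these classes.

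**Figure D5:**
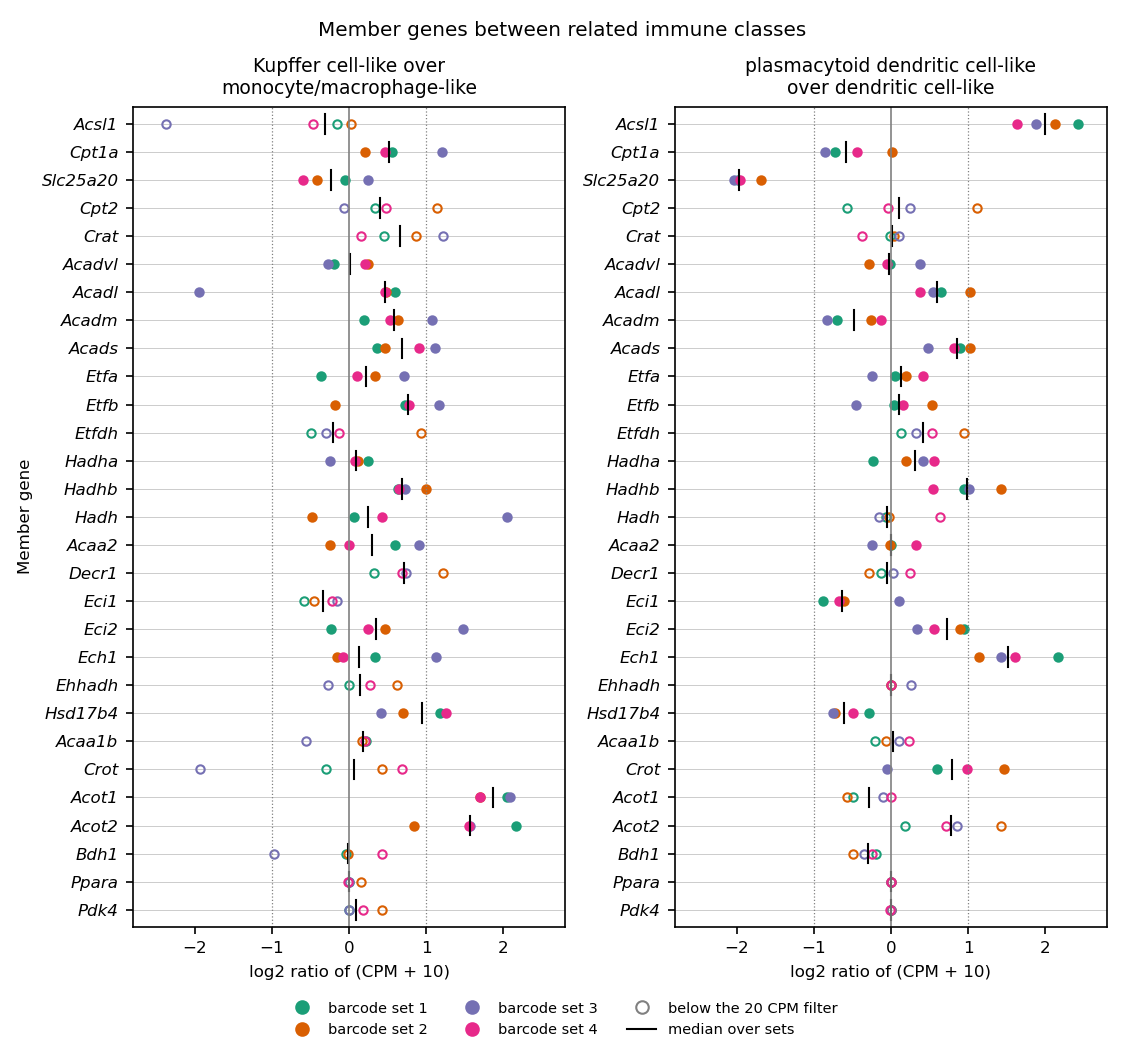
The horizontal axes give the log2 ratio of CPM plus 10 of each member, for Kupffer cell-like over monocyte/macrophage-like cells and for plasmacytoid dendritic cell-like over dendritic cell-like cells, with 1 point per barcode set and a bar at the median. Acot1 lies at 1.70 to 2.09 in the left panel, and Acsl1 (1.63 to 2.42) and Slc25a20 (-2.03 to -1.69) lie on opposite sides in the right panel.

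Hepatocyte-like cells were themselves made of 2 clusters that differed in these genes. The lower-Alb cluster held 590 cells with 17540 CPM of Alb (albumin) at the median, and the higher-Alb cluster 565 cells with 73870 CPM. The 29 members added up to 4580, 3709, 3878 and 4784 CPM in the lower-Alb cluster, against 1563, 2688 and 2294 CPM in the higher-Alb cluster in sets 1, 2 and 4, as set 3 held only 15 of its cells. The lower-Alb cluster was above the higher-Alb cluster in every set. Etfb had 1408, 988.2, 926.3 and 1146 CPM in the lower-Alb cluster, against 409.9, 378.8 and 386.9 CPM in the higher-Alb cluster. Acaa2 had 705.5, 361.4, 520.4 and 686.5 CPM in the lower-Alb cluster, against 212.3, 316 and 204.4 CPM in the higher-Alb cluster. Neither gene overlapped between the clusters.

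Over the 23 members past the filter the median log2 ratio of the lower-Alb over the higher-Alb cluster was 0.86 (0.41 to 1.29), beside 0.13 over 4263 genes. Higher by at least 2-fold was 1 member, Etfb, at 1.54 (1.36 to 1.76), where 4.6% of all genes were called higher. None was called lower, where 8.3% of all genes were. Of the members that passed, 14 were higher in every set, against 34.5% of all genes, and 3 were lower, against 26.7%. The lower ones were Hadha at -1.32 (-1.60 to -0.53), Acsl1 at -1.08 (-1.79 to -0.93) and Crot at -0.10 (-0.12 to -0.03). Cpt1a had 19.42, 46.42, 0 and 15.51 CPM in the lower-Alb cluster, against 11.25, 126 and 104.2 CPM in the higher-Alb cluster, so its direction differed between sets. The clusters also differed in depth, at 1161.5 against 2811 median UMIs per cell. Respiratory chain genes added up to a median of 16880 CPM in the lower-Alb cluster and 7949 CPM in the higher-Alb cluster, immediate early genes to 1468 and 3311 CPM, and abundant hepatocyte products to 84910 and 197200 CPM. The part of these in the values of the members was not tested. The summed level of the epithelial cluster, 2179 to 2335 CPM, lay within the range of the higher-Alb cluster. Against the higher-Alb cluster alone, Etfb in the epithelial cluster was at -0.86 and Acaa2 at -0.90, no longer 2-fold, while Bdh1 stayed at least 2-fold lower.

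Genes of the same pathways outside the 29 were taken from 5 lists of 78 genes found in the table. Named are genes of the highest mean level in each. For all lists, the shares of all genes called lower against hepatocyte-like cells were 4.33% (epithelial), 10.5% (Kupffer cell-like) and 12.7% (plasmacytoid). Those called higher were 8.23%, 19.7% and 18.1%, and the all-gene medians were 0.31, 0.48 and 0.46, in the same order. Other mitochondrial oxidation genes, in which 18 genes were found, had 13 past the filter in the epithelial cluster over hepatocyte-like cells, with 1 called lower and 0 higher and a median of -0.23. Echs1, the mitochondrial enoyl-CoA hydratase, was the one called, at -1.63 (-1.94 to -1.22), with medians of 82.87 CPM in the epithelial cluster and 268.3 CPM in hepatocyte-like cells. Acsl4 and Acsl5, further acyl-CoA synthetases, and Hsd17b10, a mitochondrial dehydrogenase, were not called in this pair. Hsd17b10 was called lower in Kupffer cell-like cells at -1.70 (-2.43 to -1.26) and in plasmacytoid dendritic cell-like cells at -1.88 (-2.24 to -1.13), where 1 of 9 and 3 of 9 genes past the filter were called lower and 0 higher.

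Of 16 other peroxisomal genes, 12 passed the filter in the epithelial cluster over hepatocyte-like cells, with 5 called lower and 0 higher and a median of -1.20. Lower in every set were 8 of these, against 18.4% of all genes, and higher in every set was 1, against 44%. The median over all 16 was -0.38. Called lower were 6 of 11 in Kupffer cell-like cells and 8 of 11 in plasmacytoid dendritic cell-like cells, with 0 higher. Scp2, the sterol carrier protein and thiolase, had medians of 393.4 CPM in the epithelial cluster, 620.2 CPM in Kupffer cell-like cells, 187.6 CPM in plasmacytoid dendritic cell-like cells and 1865 CPM in hepatocyte-like cells, and was called lower in all 3 pairs. Phyh, which starts alpha-oxidation of branched chains, was called lower in all 3 as well, at -2.21, -3.06 and -4.06. Acaa1a, the near-identical partner of Acaa1b, was not called in any of the 3, at 0.27, -0.48 and -0.68. In Kupffer cell-like over monocyte/macrophage-like cells Scp2 was called higher at 1.25 (1.09 to 1.51), the only one of 8 genes past the filter. Of all genes, 3.49% were called higher in that pair.

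The ketone body list of 7 genes had 4 past the filter in the epithelial cluster over hepatocyte-like cells, with 3 called lower and 0 higher. Acat1, the mitochondrial acetoacetyl-CoA thiolase, had medians of 47.05 CPM in the epithelial cluster, 44.8 CPM in Kupffer cell-like cells, 46.24 CPM in plasmacytoid dendritic cell-like cells and 138.5 CPM in hepatocyte-like cells. It was called lower in the epithelial cluster at -1.65 (-1.68 to -1.40) and in Kupffer cell-like cells at -1.36 (-1.76 to -1.01), and stood at -1.50 (-1.94 to -0.85), not called, in plasmacytoid dendritic cell-like cells. In Kupffer cell-like cells 3 of 4 genes of the list were called lower and in plasmacytoid dendritic cell-like cells 1 of 4, with 0 higher in both. Oxct1 activates acetoacetate for use as fuel and is known to be low in hepatocytes. It had medians of 2.636 CPM in the epithelial cluster, 61.64 CPM in Kupffer cell-like cells, 54.06 CPM in plasmacytoid dendritic cell-like cells and 5.47 CPM in hepatocyte-like cells, where set 1 had 30.98. Its ratio to hepatocyte-like cells was 1.84 (0.97 to 2.91) in Kupffer cell-like and 1.91 (0.49 to 2.95) in plasmacytoid dendritic cell-like cells, not called in either.

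The list of fatty acid uptake, binding and storage had 12 of 21 genes past the filter in the epithelial cluster over hepatocyte-like cells, with 5 called lower and 0 higher. Fabp1, the liver fatty acid binding protein, had medians of 71.26 CPM in the epithelial cluster, 120.2 CPM in Kupffer cell-like cells, 54.99 CPM in plasmacytoid dendritic cell-like cells and 5918 CPM in hepatocyte-like cells. Dbi, the acyl-CoA binding protein, had 1246, 475.9, 238.2 and 4915 CPM in the same classes. Both were called lower in all 3 pairs, as was Fabp5, another binding protein, at -3.54, -3.31 and -4.13. Fabp1 was the leading gene of the lower-Alb hepatocyte-like cluster described above, so its level in hepatocyte-like cells is a description. Fabp4 was highest in endothelial cell-like cells, at 3416 CPM, and was not called in these pairs. Kupffer cell-like cells had 6 genes called lower and 1 called higher of 11, and plasmacytoid dendritic cell-like cells 8 lower of 10.

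Of the PPAR regulators and other targets, 6 of 16 genes passed in the epithelial cluster over hepatocyte-like cells, with 0 called in either direction. Ucp2, a mitochondrial carrier, had medians of 36.66 CPM in the epithelial cluster, 780.4 CPM in Kupffer cell-like cells, 661.5 CPM in plasmacytoid dendritic cell-like cells and 59.15 CPM in hepatocyte-like cells. It was the only gene called higher of this list in both immune classes, at 3.55 (3.0 to 4.15) in Kupffer cell-like and 3.30 (2.99 to 3.75) in plasmacytoid dendritic cell-like cells. Rxra, the partner receptor of the PPARs, had 109.7 to 210.5 CPM in Kupffer cell-like cells, against 17.71 to 35.7 CPM in monocyte/macrophage-like cells, and was called higher there at 2.11 (1.39 to 2.78). Rxrb, a further partner receptor, and Sirt3, a mitochondrial deacetylase, were not called in any of the 5 pairs.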

How the data were processed

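Single-cell RNA-seq of 4 liver tumour samples was deposited as 1 table in natural log units: each gene's UMIs per 10000 in its cell, with 1 added, a unit found from the values of the file. Libraries were 10x Genomics 3' tags per the labels' protocols, and CASAVA 1.8, Cell Ranger, Seurat and mm10 are named in the submitters' processing notes. Cell filters by the authors: not given in the sources used here. At the lowest, a cell had 201 genes. None of the 24802 cell columns is tied to a sample, so genotypes were not compared and no model was fitted. The natural log values the authors deposited were turned back to UMIs: 100% of the values came out as whole numbers within 0.001.

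Cells were clustered with scanpy 1.11.5 in Python 3.11.15 (2000 variable genes, 30 components, 15 neighbours, Leiden resolution 1.0), giving 26 clusters, and named from marker lists, with 393 cells unnamed. Scrublet marked 6, 2, 0 and 1 cells in the 4 sets, too few to count as a working doublet call, so doublets were kept. Free RNA was not corrected. A level is the mean CPM over the cells of a class in a set with at least 20 cells. Ratios used a pseudocount of 10 CPM, which understates differences of low genes, and a filter of 20 CPM. The clusters rest on the same expression values, so a class against another is a description. The deleted part of Miz1 (Zbtb17) is not stated in the labels, so its 3' tags check no genotype. Genes named were all 29 members and the 4 genes of the highest mean CPM in each pathway list, some of which are not reported here. The members and lists were chosen with earlier results of these data known. Exact binomial intervals (95%) cover counting error only. Promoters are from RefSeq, and positions from GENCODE vM21, both on GRCm38, the assembly that mm10 names. Alternatives were another filter, pseudocount, normalization, gene minimum, clustering resolution, clustering without the genes of these lists, centring and leaving out each set. The scripts were tested on simulated data.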

Additional observations from a re-analysis of the deposited data

How the results depend on the processing

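No paired analysis was possible because the cell columns name no sample and no replicate number, so the genotypes could not be compared; ratios between classes were taken within each barcode set. The sets differ in depth and set 3 had 52 hepatocyte-like cells, so single values there rest on few UMIs.

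The median log2 ratio of the members kept its direction under each alternative except 1: for plasmacytoid dendritic cell-like over dendritic cell-like cells it was -0.12 with the median of all genes set to 0, a shift that the centring itself makes. For the epithelial cluster over hepatocyte-like cells it was -0.78 with a filter of 100 CPM, -0.24 with UMIs summed, -0.56 with all genes centred, and -0.07 and -0.48 against the higher-Alb and the lower-Alb cluster alone (chosen after seeing the data). For Kupffer cell-like over hepatocyte-like cells it was -1.10 with no filter, -1.84 with a filter of 100 CPM, -1.45 with a pseudocount of 1 CPM, -1.56 in cells with at least 500 genes, -1.71 centred, -1.41 without hepatocyte products, and -0.86 and -1.39 against the higher-Alb and lower-Alb cluster. For plasmacytoid dendritic cell-like over hepatocyte-like cells it was -1.09 with no filter, -2.30 with a filter of 100 CPM, -2.02 with a pseudocount of 1 CPM, -1.99 centred, and -1.02 and -1.83 against the higher-Alb and lower-Alb cluster. With a filter of 100 CPM, which tests fewer genes, it was 0.76 for Kupffer cell-like over monocyte/macrophage-like cells and 0.86 for plasmacytoid dendritic cell-like over dendritic cell-like cells. In the epithelial pair the all-gene median was 0.31, 0.19 without hepatocyte products and 0.28 with UMIs summed.

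Of the epithelial cluster, 2 members were called higher with no filter, 0 with a filter of 100 CPM, 3 with at least 500 genes, 2 without hepatocyte products, 3 and 2 against the higher-Alb and lower-Alb cluster, and 1 to 3 leaving out each set. Of Kupffer cell-like over hepatocyte-like cells, 1 was called higher with a pseudocount of 1 CPM, with UMIs summed, with at least 500 genes and against the higher-Alb cluster, and 0 to 1 leaving out each set; 3 were called lower with a filter of 100 CPM and 5 against the higher-Alb cluster. Of plasmacytoid dendritic cell-like over hepatocyte-like cells, 1 was called higher against the higher-Alb cluster and 4 lower with a filter of 100 CPM. Of Kupffer cell-like over monocyte/macrophage-like cells, 0 were called higher with a filter of 100 CPM, 2 with a pseudocount of 1 CPM, 2 at resolution 0.5 and 1 to 2 leaving out each set. Of plasmacytoid dendritic cell-like over dendritic cell-like cells, 1 was called higher and 0 lower with a filter of 100 CPM, and 1 higher when centred. The leave-one-out medians ran from 0.04 to 0.34 in that pair. Shares over all genes were not taken for the counts of calls under alternatives. The summed level in hepatocyte-like cells was 2999 CPM with UMIs summed and 3778 CPM without hepatocyte products, and that of the epithelial cluster 2409 CPM without them. Of 435 values of single members under alternatives, 412 were still at least 2-fold in every set used, and 0 reversed direction. They cover 28 combinations of pair and member, taken without the filter, so Pdk4, which lay under it, is among them. Counted in this way, changing the filter or leaving out a set could not undo a call. The count therefore does not measure how firm the calls are.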
